A study of Arabidopsis thaliana with 9 samples.

Results

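The EXORDIUM family of Arabidopsis thaliana was followed here through small RNA and RNA-seq counts of plants that carry the dxo1-2 allele. The family was taken as EXO and the EXORDIUM-like genes EXL1 to EXL7, found by their 8 locus identifiers among the 37184 genes of each count table. Small RNA was measured in 3 libraries of wild-type Col-0 and 3 of dxo1-2, and total RNA depleted of ribosomal RNA was measured by stranded RNA-seq in 3 libraries of dxo1-2. All plants were 21 days old and were grown on soil in long days of 16 h light and 8 h dark after 2 days of cold at 4 °C. Replicates are described as biological, but the labels give neither the number of plants in a library nor the lesion behind the dxo1-2 allele. The family was chosen by the small RNA values of EXO in the contrast between genotypes, so its values in that contrast are a description and are given without p-values.

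EXORDIUM proteins are plant-specific proteins of the cell wall space that share a domain first described in a phosphate-induced gene of tobacco. EXO is induced by brassinosteroids, the steroid hormones of plant growth, and is needed for full cell expansion in leaves. EXL1 is needed for growth when carbon and energy are short, and EXL2 and EXL4 are close relatives of EXO that also respond to brassinosteroids. DXO1 is the plant member of a group of proteins that trim or remove caps at the 5′ ends of RNA. Plant small RNAs are cut from double-stranded RNA by Dicer-like enzymes, and messenger RNAs with faulty ends can become templates for them.

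Small RNA libraries held 3976221 to 4393015 counts on genes in Col-0 and 5022945 to 5698185 in dxo1-2, and RNA-seq libraries 60138933 to 71210737. The targeted gene, DXO1 (AT4G17620), had 26, 45 and 21 small RNA counts in Col-0, 60, 46 and 57 in dxo1-2, and 108, 76 and 113 counts in dxo1-2 RNA-seq, which checks nothing about the genotype without a wild-type RNA-seq level. The labels name the tissue as seedlings. Green leaf markers were high in the RNA-seq libraries, with summed levels of 8387 to 10323 counts per 1e6 (CPM) over 3 green leaf markers, against 0.379 to 0.465 CPM over 4 flower markers and 0.0155 to 0.133 CPM over 3 root markers. Of these, the flower gene AP1 and the root genes RHD6 and EXPA7 were at 0 in every RNA-seq library. Among 11534 genes tested in small RNA, 3093 were higher and 2651 lower in dxo1-2, a balance that was 4703 to 809 with library totals alone, 6828 to 502 with all lines of the table as library size and 1878 to 6244 with scaling from small nuclear RNA genes.

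Small RNA on EXO (AT4G08950), the founding member, rose from near nothing to one of the highest counts of any protein-coding gene. Its counts stood at 6, 44 and 18 in the Col-0 libraries and 19402, 15560 and 23493 in the dxo1-2 libraries. The groups lay far apart, and the Col-0 libraries also differed among themselves, replicate 2 being high and replicate 1 low. Scaled by depth, the dxo1-2 mean was 3332 ± 682 CPM and the Col-0 mean 6.08 ± 5.12 CPM (SD, n = 3 each), or 9.07 ± 0.31 (SE) as a log2 fold change. From sums of 68 wild-type and 58455 mutant counts, the depth-scaled ratio was 678 with a 95% interval of 535 to 873, which covers counting error only. The log2 fold change was 9.94 without Col-0 replicate 2, the library with the most counts on EXO among the wild-type ones. By count, with no correction for length, EXO ranked 4851, 1580 and 2770 among protein-coding genes in the Col-0 libraries and 7, 8 and 5 in dxo1-2. It alone held 1.45% ± 0.270 of all protein-coding small RNA counts in dxo1-2.

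**Figure D1:**
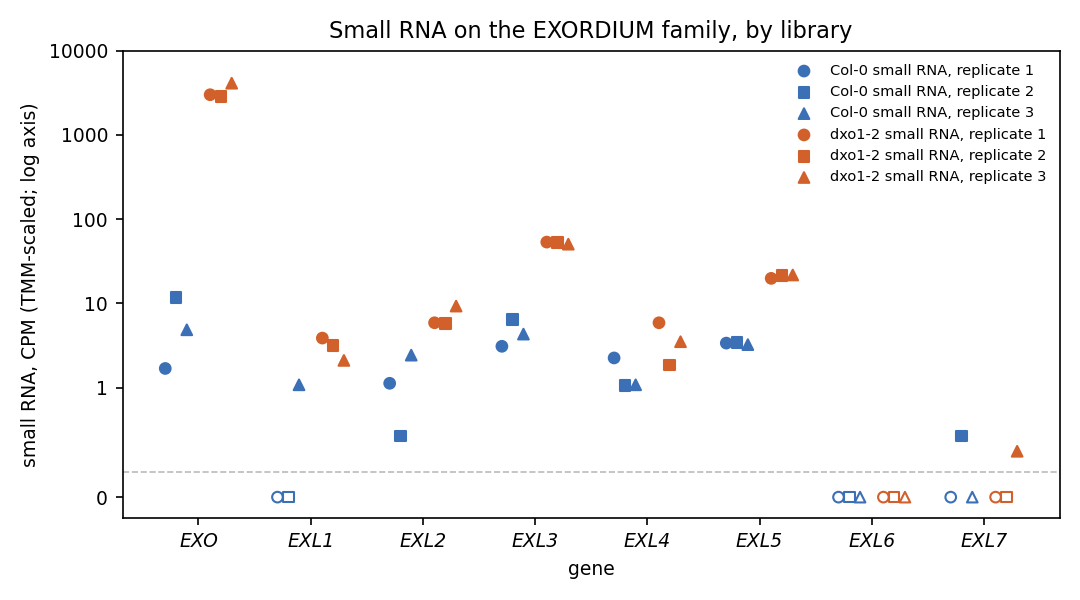
Small RNA level of each EXORDIUM family gene in each library, in CPM on a log axis, with Col-0 in blue and dxo1-2 in orange and the symbol shape giving the replicate. Open symbols under the dashed line are libraries with no count. EXO lies at 2875 to 4116 CPM in dxo1-2 and at 1.69 to 11.7 CPM in Col-0.

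EXL3 (AT5G51550) and EXL5 (AT2G17230), the members with the next highest small RNA counts, moved the same way on a much smaller scale. Col-0 libraries held 11, 24 and 16 counts of EXL3 and dxo1-2 libraries 345, 288 and 288. For EXL5 they held 12, 13 and 12 against 128, 116 and 124. In both genes every dxo1-2 library lay well above every Col-0 library. The Col-0 libraries of EXL5 were close together, while those of EXL3 ran from 3.09 to 6.39 CPM. The mean of EXL3 moved from 4.60 ± 1.66 CPM in Col-0 to 52.4 ± 1.66 in dxo1-2 (log2 fold change 3.50 ± 0.19). That of EXL5 moved from 3.36 ± 0.112 CPM to 21.0 ± 1.03 (log2 fold change 2.63 ± 0.21). A role of either gene in the plant is less well known than that of EXO or EXL1.

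EXL2 (AT5G64260), a brassinosteroid-responsive relative of EXO, carried 4, 1 and 9 counts in Col-0 libraries against 38, 31 and 53 in those of dxo1-2. The groups did not overlap, though Col-0 rested on 14 counts in all. Mean levels were 1.27 ± 1.09 CPM in wild type and 6.97 ± 2.01 CPM in the mutant (log2 fold change 2.43 ± 0.49). It was 3.27 without Col-0 replicate 3, which held 9 of those 14 counts.

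EXL1 (AT1G35140), the carbon starvation gene, which the gene table lists as PHI-1, had 0, 0 and 4 counts in the wild-type libraries and 25, 17 and 12 in the mutant ones. All Col-0 counts came from replicate 3, and the groups did not overlap. The ratio of depth-scaled summed counts was 10.6, with a wide interval of 3.93 to 40.5 from counting error, and the fitted log2 fold change was 2.99 ± 0.74. Without Col-0 replicate 3 the remaining Col-0 libraries hold no count, and the fitted value of 6.93 then depends on the prior count and is no measure of size. Without Col-0 replicate 2 it was 2.40. EXL1 and EXL2 passed the low count filter through their dxo1-2 libraries alone.

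EXL4 (AT5G09440), the other brassinosteroid-responsive relative, was the exception among the members that carried small RNA. It had 8, 4 and 4 wild-type counts and 38, 10 and 20 mutant counts. It did not pass the low count filter and was not tested. Replicate 2 of dxo1-2 stood at 1.85 CPM, below the 2.25 CPM of Col-0 replicate 1, so the groups overlapped. The ratio of depth-scaled summed counts was 3.35, with an interval of 1.92 to 6.19 for counting error. With no count filter EXL4 was also called higher, but nothing is read from this call. The family was chosen with this contrast known.

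EXL6 (AT3G02970) and EXL7 (AT2G35150) carried almost no RNA of either kind. EXL6 had 0 counts in all 6 small RNA libraries, which allows up to 0.843 CPM in Col-0 replicate 1 and up to 0.465 CPM in dxo1-2 replicate 1, the shallowest and deepest libraries, on the TMM-scaled CPM used for small RNA throughout. EXL7 had a single count in each genotype, and no fold is given. A change in small RNA on these genes was not detectable at this depth. The gene table also attaches the name EXL7 to AT1G35140 as a synonym, so both were matched by locus identifier.

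Of the 8 members, 5 passed the filter and all 5 were called higher in edgeR, with a median log2 fold change of 2.99. Calls of this direction made up 26.8% of all tested genes, 40.4% of tested protein-coding genes and 52.1% of tested protein-coding genes with at least 1 CPM in RNA-seq, and the median log2 fold change was -0.019 over all tested genes and 0.48 over protein-coding ones. In the same 5 members every dxo1-2 library lay above every Col-0 library, as in 31.1% of all tested genes. Since the filter admitted EXL1 and EXL2 through dxo1-2 alone and the family was chosen with this contrast known, nothing is read from these counts. Scaling from small nuclear RNA genes, which moved the median of all tested genes to -0.66, gave log2 fold changes of 8.45 for EXO, 2.89 for EXL3, 2.40 for EXL1, 2.00 for EXL5 and 1.76 for EXL2.

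Small RNA of the family in dxo1-2 was therefore almost entirely small RNA of EXO. EXO took 97.1% (95% exact binomial interval 96.9 to 97.4), 97.1% (96.8 to 97.4) and 97.9% (97.7 to 98.1) of family counts in the dxo1-2 libraries. In Col-0 it took 14.6% (5.57 to 29.2), 50.6% (39.6 to 61.5) and 28.6% (17.9 to 41.3). The Col-0 shares rest on 41 to 87 family counts a library, and the intervals of replicates 1 and 2 did not overlap. In dxo1-2 RNA-seq the EXO share was 11.0%, 11.2% and 16.6%. The other 7 members together went from 11.1 ± 1.18 CPM in Col-0 to 87.2 ± 1.76 CPM in dxo1-2 small RNA.

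**Figure D2:**
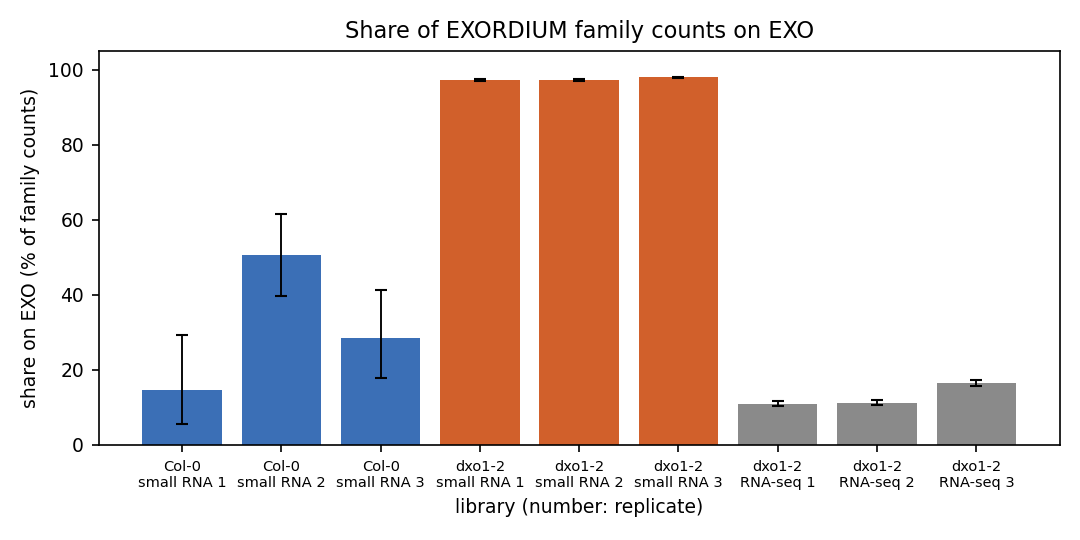
Share of all EXORDIUM family counts that fall on EXO in each library, in percent, with Col-0 small RNA in blue, dxo1-2 small RNA in orange and dxo1-2 RNA-seq in grey. Error bars are 95% exact binomial intervals. The dxo1-2 small RNA bars reach 97.1% to 97.9%, and those of RNA-seq 11.0% to 16.6%.

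Messenger RNA of the family was measured in dxo1-2 only, so the RNA-seq values give levels and no genotype comparison. Levels are compared between genes as CPM per kb of gene length (here the span of the gene in a RefSeq table). EXL3 was highest at 31.6, 32.7 and 26.2 CPM per kb, and EXL2 followed at 12.4, 14.4 and 16.3. EXO had 8.08, 9.34 and 14.9 CPM per kb. EXO and EXL2 overlapped across libraries, although EXL2 was higher in all 3. EXL4 had 5.76, 8.36 and 11.5 CPM per kb, overlapping EXO, and EXL5 had 5.26, 5.50 and 6.85, overlapping EXL4. EXL1 lay below these at 1.74, 3.21 and 4.62 CPM per kb, with no overlap with EXL5. EXL7, from 19, 15 and 4 counts, averaged 0.165 CPM per kb, and EXL6 had 2, 0 and 0 counts.

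Replicate 3 gave the highest RNA-seq level of EXO, EXL1, EXL2, EXL4 and EXL5 and the lowest of EXL3. EXL1 averaged 3.19 ± 1.44 CPM per kb, EXO 10.8 ± 3.65 and EXL3 30.1 ± 3.49 (SD, n = 3). Replicate 3 was also the dxo1-2 small RNA library with the most EXO, at 4116 CPM against 3004 and 2875. The labels do not say whether libraries with the same number in both assays came from the same plants. In RNA from bulk tissue, fewer cells of a type and less RNA per cell cannot be told apart.

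**Figure D3:**
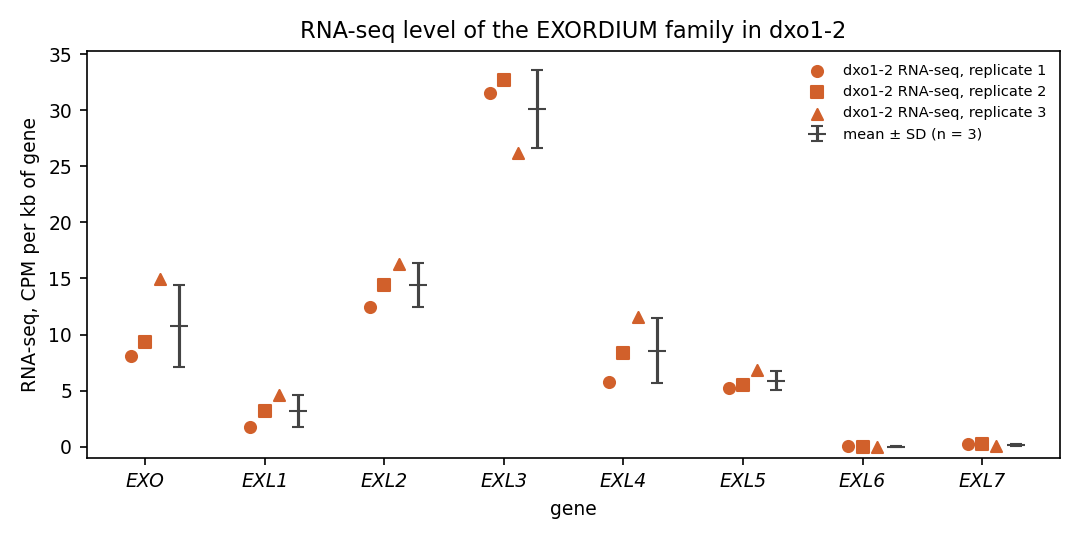
RNA-seq level of each EXORDIUM family gene in the dxo1-2 libraries, in CPM per kb of gene length, with 1 symbol for each replicate and the mean ± SD beside them. EXL3 is highest at 30.1 CPM per kb on average, EXO lies in the middle at 10.8, and EXL6 and EXL7 are close to 0.

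The amount of small RNA per transcript, independent of gene length, set EXO apart from its relatives more than either level did. In dxo1-2 EXO had 225 CPM of small RNA for each CPM of RNA-seq, and the ratio ran from 140 to 371 over all pairings of the 3 small RNA with the 3 RNA-seq libraries. EXL5 came next at 2.04 (1.65 to 2.35) and EXL3 at 1.13 (1.01 to 1.33). EXL1 had 0.760 (0.363 to 1.78), EXL4 0.287 (0.105 to 0.670) and EXL2 0.286 (0.207 to 0.442). The range of EXO did not meet that of any relative, while that of EXL1 overlapped those of EXL2, EXL3, EXL4 and EXL5.

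Over the 17215 protein-coding genes with at least 1 CPM in RNA-seq the median ratio was 0.0803, with 5% of genes under 0.0160 and 5% over 1.25. EXO ranked 16 in this order, EXL5 551, EXL3 943 and EXL1 1340, and EXL4 and EXL2 ranked 3085 and 3098. All 6 measurable members thus lay above the median, EXL2 and EXL4 by the least. The small RNA side of this ratio is the measurement that led to the choice of the family, and it is given without a test. By small RNA per kb the order in dxo1-2 was EXO at 2427 CPM per kb, EXL3 at 34.2, EXL5 at 11.9, EXL2 at 4.12, EXL4 at 2.46 and EXL1 at 2.42. EXL2, second in RNA-seq per kb, thus ranked behind EXO, EXL3 and EXL5 in small RNA per kb.

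**Figure D4:**
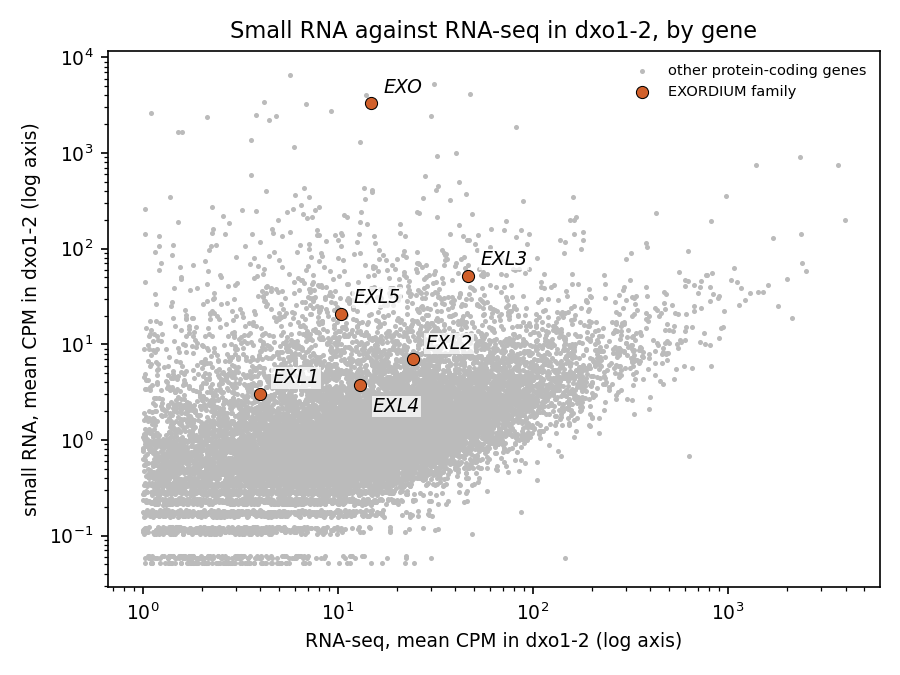
Mean small RNA level against mean RNA-seq level in dxo1-2, both in CPM on log axes, for protein-coding genes with at least 1 CPM in RNA-seq. Each grey point is a gene, 285 genes with no small RNA count are left out, and EXORDIUM family members are orange. EXO sits near the upper edge at 3332 CPM of small RNA and 14.8 CPM of RNA-seq, and its relatives lie inside the main cloud or at its upper side.

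The pseudogenes on either side of EXO, AT4G08945 and AT4G08953, showed no rise and had 0 counts in RNA-seq. AT4G08945 had 37, 41 and 25 small RNA counts in wild type and 35, 36 and 38 in the mutant, whose libraries were deeper (log2 fold change -0.58 ± 0.26, edgeR adjusted p = 0.0832). It was called lower without Col-0 replicate 3 (0.0170) and with scaling from small nuclear RNA genes (0.000777). AT4G08953 fell from 10.2 ± 2.75 to 4.64 ± 1.71 CPM (-1.12 ± 0.32, adjusted p = 0.0115), a call lost with all lines as library size (0.146) and without dxo1-2 replicate 3 (0.0552).

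Of the 17 genes that adjoin or overlap a member, 9 had at least 1 CPM in RNA-seq, and of these 4 had enough small RNA counts for the test. Called higher were 3 of the 4, beside 52.1% of tested protein-coding genes with that RNA-seq level, and 2 of the 3, LPA2 and AT2G17240, entered the test through their dxo1-2 libraries alone, so nothing is read from this count. Next to EXL3, LPA2 (AT5G51545), an assembly factor of photosystem II, had 1, 5 and 5 wild-type and 29, 20 and 35 mutant counts. On the other side of EXL3, AT5G51560 stood at 1.91 ± 0.992 CPM in wild type and 4.05 ± 0.788 in the mutant, with an edgeR adjusted p of 0.0496 (log2 fold change 1.08 ± 0.42). That call was lost in 11 of the alternatives. They include DESeq2 (0.108), limma-voom (0.0519), scaling from small nuclear RNA genes (0.391) and leaving out any 1 library other than Col-0 replicate 3. Next to EXL5, AT2G17240 had 1, 0 and 7 against 23, 19 and 22, for a log2 fold change of 2.29 that was 4.47 without Col-0 replicate 3, which held 7 of its 8 wild-type counts. Beside EXL2, AT5G64270 was not called (log2 fold change 0.55 ± 0.34, edgeR adjusted p = 0.201), though it passed with library totals alone (0.0480) and all lines as library size (0.0116). AT5G64250, on the other side and too low to test, averaged 0.735 CPM in wild type and 0.532 CPM in the mutant. The genes beside EXL1 are pseudogenes with 22.2 ± 1.81 and 35.9 ± 5.99 CPM in wild type and 23.2 ± 0.415 and 30.4 ± 5.05 CPM in the mutant. EXL6 overlaps AT3G02975, which had 0 counts in every library, and the other members overlap no gene of the table.

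Over the 6 small RNA and 3 RNA-seq libraries, the protein-coding genes with the pattern most like EXO were found by Euclidean distance of log2(CPM + 1) among 27431 genes. The nearest was bZIP2 (AT2G18160), a transcription factor gene of the sugar-responsive S1 group, at a distance of 3.79. Its small RNA went from 13.4 ± 5.88 to 4097 ± 119 CPM, and its RNA-seq level was 47.7 ± 7.40 CPM. CP12-1 (AT2G47400), a regulator of the Calvin cycle, followed at 6.08, its small RNA standing at 12.7 ± 3.28 CPM in wild type and 493 ± 117 CPM in the mutant. UGT84A2 (AT3G21560), a glucosyltransferase of sinapate metabolism, stood at 6.33 with 4.64 ± 1.10 and 335 ± 70.2 CPM. AT3G03990, listed with the synonym D14 and known as a strigolactone receptor gene, stood at 6.61 with 12.8 ± 4.29 and 373 ± 35.8 CPM. MYB28 (AT5G61420), which controls genes for glucosinolates made from methionine, stood at 6.89 with 4.24 ± 1.39 and 234 ± 5.61 CPM. None of these is an EXORDIUM gene.

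For genes reported to rise when EXO is over-expressed, the changes given here are in small RNA and do not measure messenger RNA. Neither call among them held under every alternative. EXPA5 (AT3G29030), an expansin that loosens walls, rose from 8, 10 and 5 counts in Col-0 to 29, 47 and 27 in dxo1-2, a log2 fold change of 1.49 ± 0.41 (edgeR, adjusted p = 0.00954). The call was lost with scaling from small nuclear RNA genes (adjusted p = 0.0672) and without dxo1-2 replicate 2 (0.0518). DELTA-TIP (AT3G16240), a water channel of the vacuole membrane, had 48, 41 and 77 wild-type and 149, 111 and 129 mutant counts, a log2 fold change of 0.55 ± 0.21 (edgeR, adjusted p = 0.0431), with 1 dxo1-2 library below the highest Col-0 library by CPM. That call was lost in DESeq2 (0.0586) and without any 1 library other than Col-0 replicate 3, and the sign turned with scaling from small nuclear RNA genes.

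KCS1 (AT1G01120), an enzyme of wax synthesis, was not called (log2 fold change 0.59 ± 0.46, edgeR adjusted p = 0.305). It passed without Col-0 replicate 3 (adjusted p = 0.0295) and with all lines as library size (0.0354). AGP4 (AT5G10430), an arabinogalactan protein gene, had too few counts for a test, with 0, 0 and 1 in wild type and 0, 2 and 3 in the mutant. Of the 3 tested genes 2 were called higher, beside 40.4% of tested protein-coding genes and 52.1% of those with at least 1 CPM in RNA-seq. The count was 0 without dxo1-2 replicate 2, 3 without Col-0 replicate 3, and 1 when any other library was left out.

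Other genes of wall growth were taken from lists of arabinogalactan proteins, expansins and xyloglucan endotransglucosylase/hydrolases, and no test compared the lists with each other. Of 31 listed arabinogalactan proteins, glycoproteins of the cell surface, 11 were tested and 9 rose, with a median log2 fold change of 2.07. This stands beside 40.4% of tested protein-coding genes and 52.1% of those with at least 1 CPM in RNA-seq. AGP12, AGP18 and AGP20 were under the minimum of the count filter in every Col-0 library and were tested through dxo1-2 alone, so their calls were partly fixed by the filter. Of the other 8 tested genes 6 rose, beside 21.7% of protein-coding genes with a Col-0 library over that minimum. AGP12 (AT3G13520) had 5, 2 and 3 Col-0 counts against 85, 75 and 84 in dxo1-2 (log2 fold change 3.90 ± 0.34). AGP18 (AT4G37450) had 5, 6 and 2 against 94, 84 and 93 (3.68 ± 0.32). No p-value is given for AGP12 and AGP18 because of the filter. AGP15 (AT5G11740) had 17, 21 and 29 against 167, 177 and 199 (2.35 ± 0.21, edgeR adjusted p = 2.5e-06). In each of these the groups were well apart, but they were named for the smallest p of the list. The tested members that did not pass were AGP1 at 0.99 ± 0.54 and AGP31 at 0.45 ± 0.42.

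Expansins loosen walls without cutting them. Of 25 listed genes 7 were tested, none of them through dxo1-2 alone, and 3 rose, EXPA4, EXPA1 and EXPA5. This stands beside the same 40.4% and 21.7%, and beside 52.1% of tested protein-coding genes with at least 1 CPM in RNA-seq. The median log2 fold change was 0.79. EXPA4 (AT2G39700) had 14, 7 and 2 Col-0 counts against 57, 62 and 59, a log2 fold change of 2.27 ± 0.42 (edgeR, adjusted p = 0.000844) that was 3.02 without Col-0 replicate 1. EXPA1 (AT1G69530) had 8, 15 and 21 against 43, 50 and 58, a log2 fold change of 1.11 ± 0.34 (adjusted p = 0.0154). Its call was lost with scaling from small nuclear RNA genes (0.254) and without Col-0 replicate 1 (0.0628), dxo1-2 replicate 2 (0.0518) or dxo1-2 replicate 3 (0.0742). The count of higher expansins was 6 without Col-0 replicate 3, 5 with all lines as library size or no count filter, and 2 without Col-0 replicate 1 or dxo1-2 replicate 3. EXPA16 was lower, the 1 such call, with no count filter or without Col-0 replicate 1 or any 1 dxo1-2 replicate.

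Xyloglucan endotransglucosylase/hydrolases (XTH), which cut and rejoin the xyloglucan chains of the wall, went both ways. Of 33 listed genes 13 were tested, 6 rose and 1 fell, and the median log2 fold change was 0.83. This stands beside 40.4% of tested protein-coding genes called higher and 17.2% called lower. Among those with at least 1 CPM in RNA-seq 52.1% were called higher. XTH7 and another 3 of the 13 were tested through dxo1-2 alone, so any call of theirs was partly fixed by the filter. Of the other 9 tested genes 3 rose, beside 21.7% of protein-coding genes with a Col-0 library over the minimum of the filter. XTH27 (AT2G01850) had 10, 12 and 18 Col-0 counts against 138, 121 and 128, a log2 fold change of 2.59 ± 0.22 (edgeR, adjusted p = 1.9e-06). XTH7 (AT4G37800) had 2, 2 and 4 counts against 15, 16 and 12, a log2 fold change of 1.72 ± 0.47. The call of XTH7 was lost with scaling from small nuclear RNA genes (edgeR adjusted p = 0.105) and in DESeq2 (0.0588). It was also lost when Col-0 replicate 1 (edgeR adjusted p = 0.0520) or 2 (0.0577) was left out.

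The gene that fell, XTH26 (AT4G28850), had 129, 190 and 192 wild-type counts and 125, 100 and 104 mutant counts, with no overlap by CPM (-1.31 ± 0.15, adjusted p = 2.3e-05). XTH26 was nearly silent in RNA-seq, with 0, 4 and 0 counts. XTH27 was transcribed, with 5319, 4173 and 5344 RNA-seq counts. Without Col-0 replicate 2, dxo1-2 replicate 2 or dxo1-2 replicate 3 only 3 XTH genes rose. The count was 4 in DESeq2 and without Col-0 replicate 1 or dxo1-2 replicate 1, and 1 with scaling from small nuclear RNA genes.

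**Figure D5:**
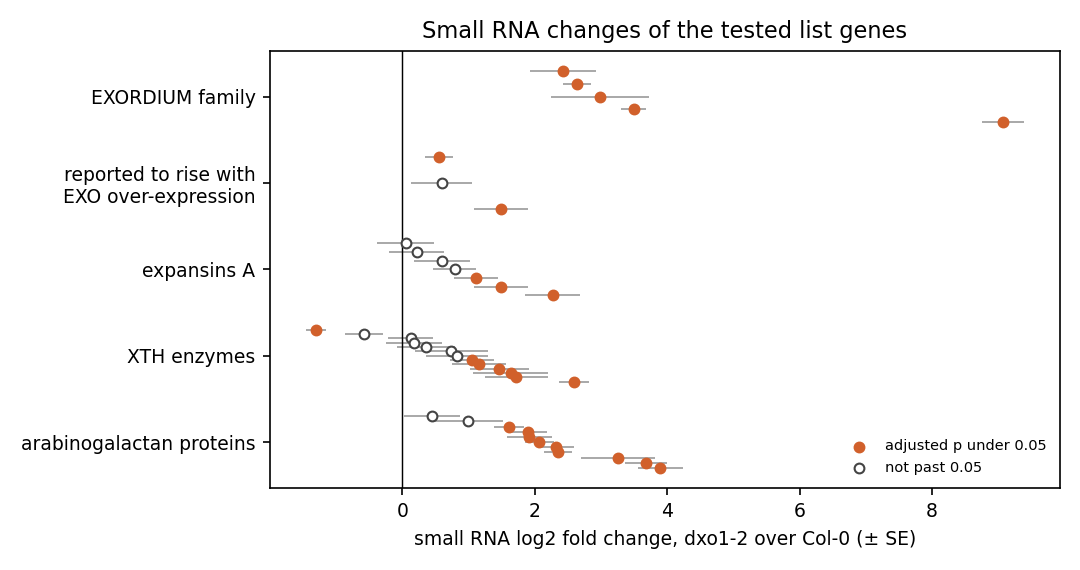
Small RNA log2 fold change of dxo1-2 over Col-0 with its SE for each tested gene of the EXORDIUM family and of the other lists. These are the genes reported to rise with EXO over-expression, expansins, XTH genes and arabinogalactan proteins. Filled orange points passed an adjusted p of 0.05 in edgeR and open points did not, and EXPA5 appears in both lists that hold it. The calls of the EXORDIUM family are a description, since it was chosen with this contrast known. EXO lies at 9.07, and the highest gene of the other lists is AGP12 at 3.90.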

How the data were processed

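The deposited values were raw counts per gene, 1 table for each library, with 5 summary lines that stayed out of tests. The submitters' processing notes list Bowtie, bedtools, HISAT2, HTSeq and DESeq2 and the build TAIR10. Roles, strand setting and the treatment of multiple matches are not given in the sources used here. Near-identical genes could share reads, and sense and antisense small RNA cannot be told apart. Non-unique alignments made up 0% of lines in the small RNA libraries and 9.88% to 11.0% in those of RNA-seq. Such reads may have been handled differently between the assays, which bears on the ratios of small RNA to RNA-seq. The tables give no read length. Reads on no annotated feature made up 61.7% to 68.4% of small RNA lines. The members' sequences were not used here.

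Symbols, gene spans and neighbours came from a RefSeq table of assembly TAIR10.1, which matched 36899 identifiers and all 8 members. The planned coding length was replaced by the gene span.

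The 6 small RNA libraries were tested in edgeR 4.0.16 under R 4.3.3 (two-sided quasi-likelihood test on genotype, TMM scaling, default filter, prior count 0.125), with Benjamini-Hochberg adjustment at 0.05 over all tested genes. SE was taken as the log2 fold change, unsigned, divided by the root of F. Small RNA CPM is TMM-scaled and RNA-seq CPM uses library totals. Ratios and shares have exact binomial 95% intervals, and a count of 0 allows up to 3 counts. Intervals and floors cover counting error only. The labels do not tie replicates to separate plants, so p-values measure the spread between these libraries.

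Members and lists were chosen with earlier results of these data known. Named were all members, the genes reported to rise with EXO over-expression, the 3 tested genes with the smallest p of each other list, the 5 genes nearest to EXO, and neighbours. EXPA16, AGP1, AGP20, AGP31, unfiltered EXL4 and the choice of neighbours to describe were added with their values in view. The alternatives were scalings, filters, limma-voom 3.58.1, DESeq2 1.42.0, each library left out and a replicate block.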

Additional observations from a re-analysis of the deposited data

How the results depend on the processing

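Family members called higher numbered 5 to 6, and 3 at a mean of at least 50 counts, where only 3 members were tested. As the family was chosen with this contrast known, nothing is read from these numbers. That filter also left 3 arabinogalactan proteins, 1 XTH gene, 1 gene reported to rise with EXO over-expression, 0 expansins, and 1435 higher and 1286 lower genes in all. With library totals alone 4703 genes were higher and 809 lower (median log2 fold change 0.32), with all lines as library size 6828 and 502 (0.55), and with scaling from small nuclear RNA genes 1878 and 6244 (-0.66). The last gave 1 expansin and 1 XTH gene higher, 2 XTH genes lower and 0 genes of the over-expression list, in which KCS1 and DELTA-TIP turned to log2 fold changes of -0.099 and -0.100, as did AT5G64270 beside EXL2, to -0.065. DESeq2 left 1 gene of that list. Higher expansins numbered 5 with all lines or no count filter, the latter with 1 lower. Leaving out 1 library gave 2576 to 3645 higher and 1974 to 3109 lower genes, 2 to 6 higher and 0 to 1 lower expansins, 3 to 8 higher XTH genes, 9 to 12 higher arabinogalactan proteins and 0 to 3 higher genes of the over-expression list. The causes were not tested.

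Same-numbered Col-0 and dxo1-2 libraries did not deviate together (correlations 0.111, -0.095 and -0.035). With 3 libraries a group this cannot tell whether they were grown or prepared together. With the replicate block the EXO log2 fold change was 9.08 and 5 members were called higher. RNA-seq levels per kb moved by less than 1 SD with TMM scaling. Leaving out 1 of 3 libraries cannot move a mean by 1 SD, so that limit says nothing there. With a library left out, EXO ran from 8.71 to 12.1 CPM per kb and EXL1 from 2.47 to 3.91. Depth limits EXL1, EXL2 and EXL4, with 4 to 16 summed counts in Col-0, and leaves EXL6 and EXL7 without a comparison.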
